A study of Caenorhabditis elegans with 59 samples.

Results

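The 7 guide strands mir-35, mir-36, mir-37, mir-38, mir-39, mir-40 and mir-41-3p come from 7 consecutive hairpins on chromosome II of Caenorhabditis elegans. They were chosen by name, as the rows of these guides in a table of 310 miRNA strands counted by small-RNA sequencing in 59 libraries of whole worms. All 7 were counted in every library, and the smallest count of any of them was 243 reads. Levels are given as CPM, the counts of a strand scaled to the same total of miRNA counts in each library.

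The 59 libraries came from 3 experiments. The first compared the wild type with ebax-1(tm2321), a null allele, in early embryos, late embryos kept 6 h in M9 buffer, starved L1 larvae, L2 larvae (16 h after plating), L3 larvae (28 h), L4 larvae (42 h) and gravid adults (68 h), all at 20 °C. It also held adults carrying glp-4(bn2), which nearly lack a germline when raised at 25 °C, with ebax-1 intact or with tm2321, 48 h after plating, hatched at 15 °C. Each stage and genotype had 2 libraries, 32 in all, and the gravid adult libraries were taken by the authors from earlier work. The second experiment compared wild-type L1 larvae with L1 larvae carrying ebax-1(ju699), another null allele, with 2 libraries each. The third used 23 libraries of L4 larvae at 42 h from animals with wild-type mir-43 or with mir-43(M1), mir-43(M2) or mir-43(M3), in which the sequence of mir-43 was altered in the seed (M1) or downstream of it (M2 and M3), each with ebax-1 intact or with tm2321. These 8 groups had 3 libraries each, except the 2 of ebax-1(tm2321) with wild-type mir-43. The question addressed was which miRNAs, at which stage, depended on EBAX-1.

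A mature miRNA guides an Argonaute protein to messenger RNAs that pair with its seed, the bases near its 5′ end. The mir-35 family shares a seed and is known in C. elegans for being essential in embryogenesis, for acting redundantly and for disappearing near the end of embryonic life. EBAX-1, the worm relative of mammalian ZSWIM8, is a substrate receptor of a cullin-RING ubiquitin ligase. ZSWIM8 is known for target-directed miRNA degradation, in which extensive pairing of a miRNA to a trigger RNA leads to loss of the Argonaute and then of its miRNA. The passenger strand is the other arm of the hairpin, which is normally discarded when the guide is loaded.

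In WBcel235 the hairpins lie on the plus strand between positions 11537608 and 11538404 of chromosome II, a span of 797 bases. Each hairpin is 87 to 98 bases long, and the gaps between neighbours run from 2 bases (mir-37 to mir-38) to 61 bases (mir-38 to mir-39). The protein-coding gene Y62F5A.9 spans all of them on the opposite strand, and none overlaps an exon of a protein-coding gene, so that the cluster is intronic to that gene and antisense to it. Hairpin mir-35 starts at 11537608, mir-36 at 11537713, mir-37 at 11537833, mir-38 at 11537933, mir-39 at 11538089, mir-40 at 11538184 and mir-41 at 11538308. The order of the names is therefore also the order along the strand.

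Libraries held between 302789 and 20538418 miRNA counts, with a median of 7221472. Stage markers broadly followed the labels of the controls. The level of lin-4, which times the early larval stages, was at most 38.5 CPM in wild-type embryos. In wild-type L2, L3 and L4 larvae it was at least 18002 CPM. Early embryos had more of it (38.5 and 28.9 CPM) than late embryos (2.50 and 2.90 CPM). For let-7, a late larval miRNA, the wild type of the first experiment had at most 3.05 CPM in L1 larvae. Its L4 larvae had at least 11803 CPM. A pair of libraries of the mir-43 experiment stood apart. Wild-type replicate 1 had 2322 CPM of let-7 against 8724 and 12069 in the other two, and ebax-1(tm2321); mir-43(M3) replicate 2 was the library with the fewest counts and held 30513 CPM of the 7 guides against 15313 and 12531. Results of that experiment that rest on them are given with and without both, a choice made after seeing the data. Counts of the members also carry ligation and amplification preferences that were not measured here, so an order of members is an order of counts. In whole worms, fewer cells that hold a miRNA and less of it in each cell cannot be told apart.

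In the wild type the cluster was a major part of the embryo's miRNA and fell steeply into the L1 stage. The 7 guides together took 357762 and 334807 CPM in the 2 early-embryo libraries, that is 35.8% and 33.5% of all miRNA counts. They took 163692 and 162170 CPM in late embryos and 9686 and 8720 CPM in starved L1 larvae. The L1 mean was 5.65% of the late-embryo mean. Replicates were close at these stages, and no library of 1 stage reached the range of another.

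The fall continued to L3 and then turned. The summed level was 6534 and 5381 CPM in L2, 1206 and 1199 CPM in L3, 3043 and 2993 CPM in L4 and 33114 and 20019 CPM in gravid adults. The L3 mean, the lowest of the stages at 20 °C, was 0.347% of the early-embryo mean. Gravid adults carry a germline and embryos, and glp-4 adults, which nearly lack a germline, had 348 and 818 CPM, with a mean 45.6-fold below that of gravid adults. The germline-enriched mir-70 was also lower in glp-4 adults (6754 and 6152 CPM) than in gravid adults (24945 and 29845 CPM). Germline, temperature, genotype and the source of the libraries all differed between these adults and cannot be told apart.

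The members followed this course with different sizes of step. By the quasi-likelihood test of edgeR with Benjamini-Hochberg adjustment over all strands tested (threshold 0.01), 7 of 7 guides fell from early to late embryo (32.4% of all strands tested fell), by 1.19 to 1.86 on the log2 scale. All 7 fell from late embryo to L1 (33.5% of strands fell), from mir-41-3p (fell by 3.81 ± 0.09 on the log2 scale, SE) to mir-36 (fell by 4.69 ± 0.11). From L1 to L2, 4 of 7 fell (16.0% of strands), namely mir-38, mir-39, mir-40 and mir-41-3p, while mir-37 had a log2 change of -0.29 ± 0.14 (adjusted p = 0.098). Of these, 2 passed without wild-type L1 replicate 1 or L2 replicate 2 and 1 without L1 replicate 2. The fall from L2 to L3 again took in 7 of 7 (22.4% of strands), by 2.05 to 2.46 on the log2 scale.

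The later rise was less even. From L3 to L4, 6 of 7 rose (16.1% of strands rose), all but mir-41-3p, which had a log2 change of 0.80 ± 0.18 (adjusted p = 0.021). From L4 to gravid adult 6 of 7 rose (6.25% of strands), led by mir-39 at 4.0 ± 0.29 log2 units, and mir-37 had 0.64 ± 0.15 (adjusted p = 0.027). Between gravid and glp-4 adults all 7 were lower in the latter (15.9% of strands), from mir-37 (log2 change -3.06 ± 0.43) to mir-39 (-6.53 ± 0.52). The call of the L3 to L4 rise was lost for all members when either wild-type L3 library was left out, and that of the L4 to adult rise for all but 1 without wild-type L4 replicate 1 and for all without replicate 2. The median change over all strands tested lay between -0.12 and 0.07 log2 units in these 7 steps.

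**Figure D1:**
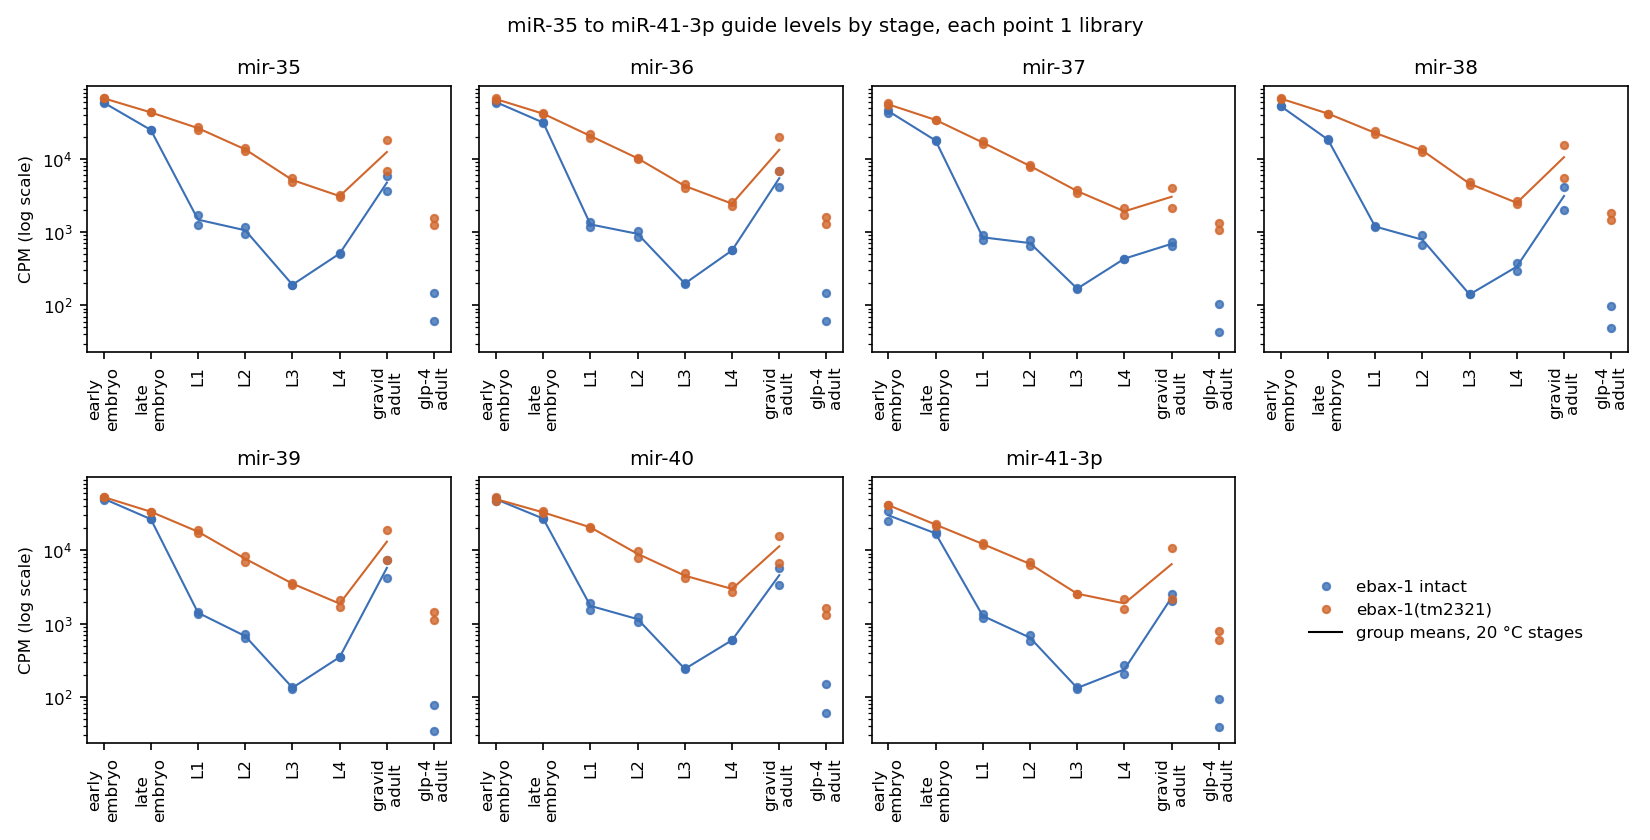
Level of each of the 7 guides in CPM (log axis) at 8 stages, with blue points for libraries with ebax-1 intact, orange points for ebax-1(tm2321) and lines through the means of the stages at 20 °C. The wild type drops from late embryo to L1, where its 7 guides together fell to 5.65% of their late-embryo mean, and the mutant declines stage by stage to L4.

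The order of the stages by level was the same for 6 of the members in the wild type, namely early embryo, late embryo, gravid adult, L1, L2, L4, L3 and glp-4 adult, and the 2 libraries of each stage stayed clear of those of the next. The exception was mir-37, for which gravid adults (729 and 652 CPM) came after L1 (921 and 772 CPM) and L2 (770 and 644 CPM), and the ranges of L2 and gravid adult met. In ebax-1(tm2321) each member ran from early embryo to late embryo to L1 without overlap, and the place of gravid adults could not be set, because their 2 libraries differed 2.75-fold in summed level. Between early embryos and glp-4 adults, the highest and the lowest group, the mean level of a member changed 458-fold (mir-41-3p) to 916-fold (mir-39) in the controls. In the mutants it changed 34.4-fold (mir-40) to 59.3-fold (mir-41-3p). Within the wild type alone, the L3 mean of a member was 0.262% (mir-39) to 0.481% (mir-40) of its early-embryo mean.

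Within a stage the members differed little. In 55 libraries other than those of gravid adults the largest member held between 1.62 and 3.19 times the counts of the smallest. In wild-type early embryos mir-36 (60786 and 58261 CPM) and mir-35 (58335 and 59046 CPM) led and their ranges met, and mir-41-3p (34930 and 25331 CPM) was last. In wild-type late embryos the order was mir-36, mir-40, mir-39, mir-35, mir-38, mir-37 and mir-41-3p, with no neighbours overlapping. From L1 to L4 the wild type was led by mir-40, with 1933 and 1555 CPM in L1, 1238 and 1060 in L2, 236 and 244 in L3, and 598 and 588 in L4. Ranges of neighbours met in 4 of 6 cases in L1 and 6 of 6 in L2, so that much of this order lay within the spread of the replicates. The order did not follow the position along the cluster, and mir-41-3p was the lowest at 5 of the 8 stages of the controls, glp-4 adults included.

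Loss of EBAX-1 changed the early embryo least. The 7 guides summed to 391620 and 407539 CPM in ebax-1(tm2321), a mean 1.15-fold above the wild type. For mir-41-3p the libraries read 34930 and 25331 CPM in the wild type and 41255 and 41646 CPM in the mutant. For mir-38 they read 52101 and 52800 CPM against 65623 and 67253 CPM. Mutants were above wild type without overlap for 6 members, and mir-40 (52681 and 47116 against 46984 and 53307 CPM) was the one whose groups overlapped. Of all strands tested, 27.2% were above without overlap.

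By edgeR, 3 of 7 members rose in mutant early embryos, beside 15.5% of all strands tested. They were mir-41-3p (log2 change 0.55 ± 0.10, adjusted p = 5.6e-06), mir-38 (0.43 ± 0.10, adjusted p = 0.00020) and mir-37 (0.40 ± 0.10, adjusted p = 0.00081), and mir-40 had 0.10 ± 0.10. None was called when either mutant library was left out, and 1 was without wild-type replicate 2. The level of lin-4 also differed between these groups, at 38.5 and 28.9 CPM in the wild type and 0.745 and 1.47 CPM in the mutant. Its part in the result was not tested.

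By the late embryo every member was higher in the mutant and the members had begun to separate. The sum was 250584 and 247454 CPM in ebax-1(tm2321) against 163692 and 162170 CPM. For mir-38 the levels were 41576 and 41400 CPM against 18454 and 18194 CPM, and for mir-40 they were 33992 and 31983 CPM against 27252 and 27024 CPM. All 7 rose (13.4% of strands), and the log2 changes were 1.36 ± 0.03 for mir-38, 1.12 ± 0.03 for mir-37, 0.98 ± 0.03 for mir-35, 0.58 ± 0.03 for mir-36, 0.58 ± 0.04 for mir-41-3p, 0.52 ± 0.03 for mir-39 and 0.46 ± 0.03 for mir-40. Of the stage markers, mir-84 ranged over 23.5 to 26.1 CPM and mir-48 over 24.7 to 30.2 CPM, and both overlapped between genotypes. The others were low and did not overlap. In the mutant lin-4 was 2.21 and 1.79 against 2.50 and 2.90 CPM, and let-7 was 1.69 and 2.00 against 2.93 and 2.45 CPM. For mir-237 the levels were 0.521 and 0.105 against 0.977 and 0.891 CPM. For mir-241 they were 2.47 and 3.37 against 1.85 and 1.89 CPM. The part of these markers in the result was not tested.

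In starved L1 larvae the guides were far higher in the mutant, 14.9-fold in summed level and from 9.58-fold for mir-41-3p upward in the ratio of mean CPM. The level of mir-35 was 1691 and 1260 CPM in the wild type and 24944 and 27538 CPM in ebax-1(tm2321). Levels of mir-37 were 921 and 772 CPM against 16093 and 17307 CPM, those of mir-38 were 1202 and 1178 CPM against 21514 and 23700 CPM, and those of mir-41-3p were 1201 and 1343 CPM against 11794 and 12592 CPM. The mutant libraries, with 131192 and 142491 CPM of the 7 guides, held 13.1% and 14.2% of their miRNA counts in the cluster, against 0.969% and 0.872% in the wild type.

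All 7 rose in L1 (7.25% of strands), from 3.45 ± 0.10 log2 units for mir-41-3p (10.9-fold as fitted) to 4.49 ± 0.13 for mir-37 (22.4-fold). The mutant kept 55.0% of its late-embryo level at L1, where the wild type kept 5.65%. Mutant L1 larvae had more lin-4 (1057 and 398 CPM against 291 and 87.5 CPM) and more let-7 (70.4 and 28.9 CPM against 2.89 and 3.05 CPM). The part of these stage markers in the result was not tested. In the ju699 experiment described further on, let-7 was 38.6 and 19.1 CPM in mutant and 54.9 and 43.2 CPM in wild-type L1 larvae, and the 7 guides were 12.9-fold higher in the mutant.

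L2 and L3 larvae showed the same direction. In L2 the sum was 67442 and 68107 CPM in ebax-1(tm2321) against 6534 and 5381 CPM, and 7 of 7 rose (6.25% of strands), from mir-40 (log2 change 3.02 ± 0.23) to mir-38 (4.11 ± 0.24). In L3 it was 26765 and 29587 CPM against 1206 and 1199 CPM, and 7 of 7 rose (8.29% of strands), again from mir-40 (4.36 ± 0.12, 20.5-fold) to mir-38 (5.15 ± 0.10, 35.5-fold). For mir-38 in L3 this was 140 and 141 CPM in the wild type and 4364 and 4789 CPM in the mutant. Some stage markers differed as well. In mutant L2 larvae mir-48 was 404 and 271 against 509 and 680 CPM, and lin-4 overlapped (19464 and 10873 against 21023 and 18002 CPM). In mutant L3 larvae mir-48 was 9808 and 7739 against 11546 and 11462 CPM, and let-7 was 259 and 183 against 328 and 678 CPM. There lin-4 was higher (22402 and 23322 against 20442 and 21004 CPM). Their part in the result was not tested. No member passed in L2 when either wild-type L2 library was left out.

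In L4 larvae the difference was smaller and all members still rose. The sum was 16926 and 16439 CPM in ebax-1(tm2321) and 3043 and 2993 CPM in the wild type. All 7 rose (5.38% of strands), from mir-36 (2.27 ± 0.21) to mir-41-3p (3.14 ± 0.30), whose libraries read 2195 and 1573 CPM against 205 and 268 CPM. With the replicate number as a block in the fit, no member was called. The calls were lost without either wild-type L4 library. Mutant L4 larvae had less let-7 (4900 and 7444 CPM against 11803 and 13700 CPM), whose part in the result was not tested.

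In gravid adults the replicates of each genotype lay far apart and no member was called. The mutant libraries held 102994 and 37470 CPM of the 7 guides and the wild type 33114 and 20019 CPM. No member passed the threshold in edgeR (0.448% of strands rose), although 7 of 7 had an unadjusted p under 0.05, and DESeq2 called 2 higher. The log2 changes ran from 1.30 ± 0.45 for mir-39 to 2.24 ± 0.35 for mir-37, with adjusted p from 0.026 to 0.31. Without wild-type replicate 1, 6 members passed, and without wild-type replicate 2, 1 did. The groups overlapped for mir-41-3p (10818 and 2136 CPM against 2504 and 2034 CPM) and mir-39 (18985 and 7298 CPM against 7370 and 4152 CPM), and the other 5 were higher in both mutant libraries (13.9% of strands were).

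Adults carrying glp-4 showed the difference clearly from a low base. The sum was 8111 and 10111 CPM with ebax-1(tm2321) and 348 and 818 CPM without it. The 7 members ranged from 33.6 to 149 CPM in the controls and from 602 to 1816 CPM in the mutants, without overlap. Of all strands compared, 26.7% were above without overlap. By edgeR 4 of 7 rose (5.83% of strands), namely mir-39 (4.57 ± 0.48), mir-38 (4.51 ± 0.41), mir-37 (4.05 ± 0.49) and mir-36 (3.84 ± 0.47). The others, mir-35, mir-40 and mir-41-3p, had 3.45 to 3.84 log2 units and adjusted p of at most 0.013, and all 7 passed by DESeq2.

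**Figure D2:**
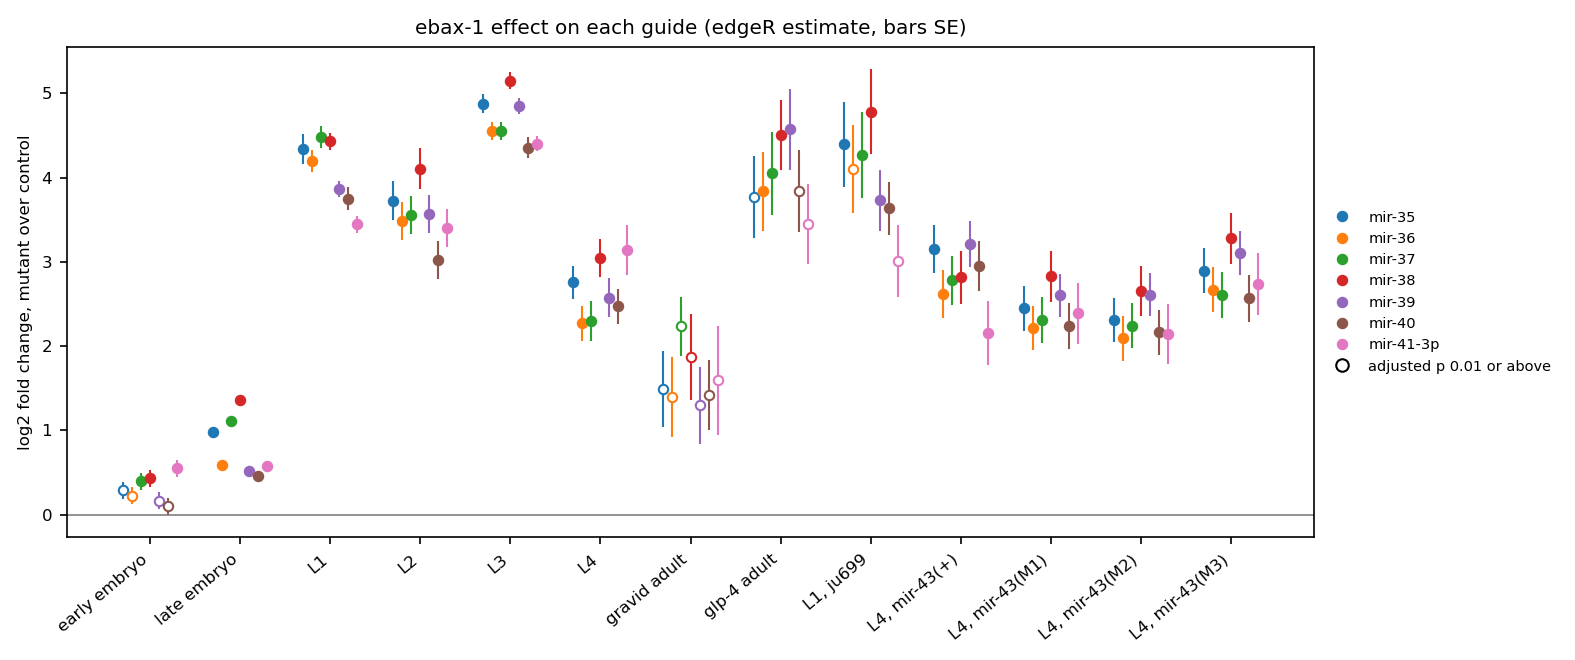
log2 fold change of each guide, mutant over control with the same background, in 13 comparisons (edgeR estimate, bars SE), with filled points for an adjusted p below 0.01. The 91 estimates are all above 0, 75 of them pass, mir-38 is the highest member in 7 comparisons, and no member passes in gravid adults.

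The size of the effect itself differed between neighbouring stages. Tested as an interaction across 8 libraries, it was larger in late than in early embryos for 5 of 7 members (13.2% of strands), by up to 1.02 ± 0.09 log2 units for mir-38. This count was 0 to 3 on leaving out any 1 of the 8 libraries, and 0 without mutant early-embryo replicate 2. It was larger in L1 than in late embryos for 7 of 7 (4.85% of strands), by 2.90 ± 0.10 for mir-41-3p to 3.65 ± 0.13 for mir-36. From L1 to L2 no member passed by edgeR or DESeq2, 4 had an unadjusted p under 0.05, and the estimates were -0.12 to -1.01. From L2 to L3 mir-39 was called (1.32 ± 0.18, 1.37% of strands higher), with the other 6 between 1.04 and 1.38 at adjusted p of at most 0.016. All 7 passed by DESeq2 or without either mutant L2 library, and none without any 1 of the other 6 libraries.

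From L3 to L4 the effect shrank for 6 of 7 members (2.68% of strands lower), by 1.80 to 2.2 on the log2 scale, and mir-41-3p had -1.17 ± 0.30 (adjusted p = 0.051). The wild type rose 2.51-fold in this interval while the mutant went to 59.2% of its L3 level. No difference was called from L4 to gravid adults or between gravid and glp-4 adults, where the intervals of the members together ran from -3.14 to 0.76 and from 0.15 to 4.79. For the first 0 members had an unadjusted p under 0.05 by edgeR and DESeq2 called 0. For the second these were 6 and 1.

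The other null allele also raised the guides in L1. Wild-type larvae of that experiment held 12957 and 5367 CPM of the 7 guides and ebax-1(ju699) larvae 126316 and 110129 CPM. The level of mir-38 was 1269 and 469 CPM against 20459 and 17835 CPM, and that of mir-41-3p 1692 and 683 CPM against 7539 and 7817 CPM. By edgeR 5 of 7 rose (4.65% of strands), led by mir-38 (4.78 ± 0.50, 27.5-fold), and mir-36 (4.1 ± 0.53, adjusted p = 0.011) and mir-41-3p (3.01 ± 0.42, adjusted p = 0.015) stood just outside. All 7 passed by DESeq2 or without any 1 of the 4 libraries, and none passed by edgeR scaled to library size alone. The wild-type libraries differed 2.41-fold in summed level.

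The effects of ju699 and tm2321 in L1 differed by -0.44 to 0.34 log2 units, and none was called by edgeR or DESeq2, with 0 members at an unadjusted p under 0.05. The interval of the difference was -1.32 to 0.43 for mir-41-3p and -0.62 to 1.29 for mir-38. Differences within these intervals were not excluded. Each allele was compared with its own wild type.

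The guides did not rise in equal measure, and in late embryos mir-38 and mir-40 parted most. In wild-type late embryos mir-38 was 11.3% and 11.2% of the 7 guides' counts and mir-40 was 16.6% and 16.7%. In ebax-1(tm2321) mir-38 was 16.6% and 16.7% and mir-40 was 13.6% and 12.9%. The ratio of mir-38 to mir-40 went from 0.677 and 0.673 to 1.22 and 1.29.

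The shares were tested by edgeR with the summed counts of the 7 as library size. Under that scaling nearly every other strand falls in the mutant, and the adjustment over the table is then close to none. In all share tests the percentages of strands follow largely from the change of the 7 guides themselves. They do not show how rare a change of share was. In late embryos 3 members took a larger share (3.98% of strands), namely mir-38 (log2 change of the share 0.57 ± 0.03), mir-37 (0.32 ± 0.03) and mir-35 (0.19 ± 0.03). The other 4 took a smaller one (91.0% of strands), from mir-40 (-0.33 ± 0.03) to mir-36 and mir-41-3p (both -0.21).

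At the other stages few share changes passed. In L3 the share of mir-38 rose by 0.48 ± 0.10 log2 units (0.461% of strands), from 11.6% and 11.7% to 16.3% and 16.2%, and in L1 that of mir-41-3p fell by 0.64 ± 0.14 on the log2 scale (96.1% of strands), from 12.4% and 15.4% to 8.99% and 8.84%. The L3 call was lost on leaving out any 1 of its 4 libraries, and the L1 call without either mutant library. Over the 10 tests of the ebax-1 effect on shares, mir-38 was above 0 in 10 and mir-40 below 0 in 10, with 2 and 1 of them called. No share was called in early embryos, L2, L4, gravid or glp-4 adults or ju699 larvae, where 2 members in L2 and 0 in the others had an unadjusted p under 0.05. By limma none was called in early embryos, L2 or ju699 larvae, and the rest were not run. In ju699 larvae the estimates were the largest, -0.98 ± 0.60 for mir-41-3p and 0.81 ± 0.61 for mir-38.

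Across all libraries the share of mir-38 ran from 8.75% to 25.3% (median 13.1%) in the 30 with ebax-1 intact and from 14.6% to 20.9% (median 17.5%) in the 29 mutant ones. The highest value with ebax-1 intact was that of wild-type replicate 1 of the mir-43 experiment, the library that stood apart. That of mir-40 ran from 10.2% to 23.8% (median 18.2%) and from 11.8% to 18.99% (median 15.6%).

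**Figure D3:**
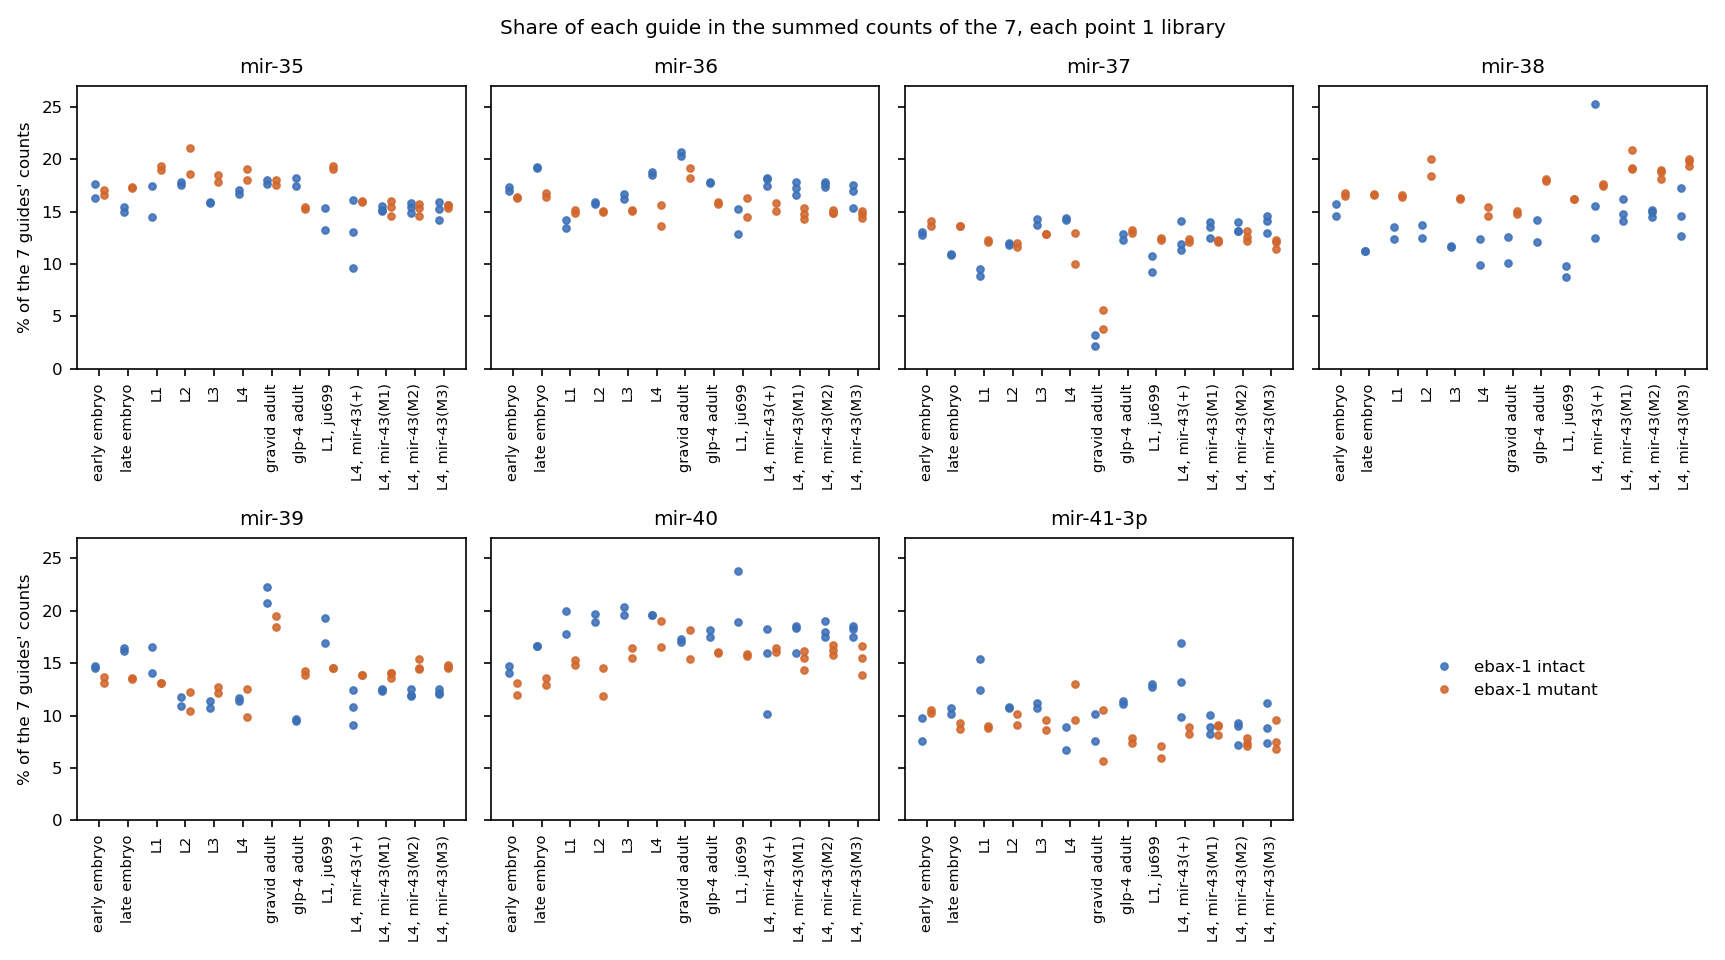
Share of each guide in the summed counts of the 7, in percent, for all 59 libraries by stage, allele and mir-43 background, with blue for ebax-1 intact and orange for mutants. Late-embryo mir-38 moves from 11.2 to 11.3% up to 16.6 to 16.7%, and mir-37 drops to between 2.2 and 5.65% in the 4 gravid adult libraries.

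Some shares also moved between stages of the wild type. From early to late embryo the share of mir-38 fell by 0.43 ± 0.08 on the log2 scale (8.33% of strands lower), and from late embryo to L1 that of mir-36 fell by 0.48 ± 0.09 (0.485% of strands lower). Both calls were lost without either late-embryo library. The early-embryo shares of mir-38 were 14.6% and 15.8% in the wild type and 16.8% and 16.5% in the mutant. The mutant's own change between embryo stages was not tested.

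Gravid adults had a composition of their own. The guide mir-37 held 2.2% and 3.26% of the 7 guides' counts in wild-type adults and 3.84% and 5.65% in ebax-1(tm2321) adults, below the 8.86% to 14.6% of all 55 other libraries. From L4 to adult its share fell by 2.39 ± 0.39 on the log2 scale in the wild type (93.8% of strands lower). The share of mir-39 was 22.3% and 20.7% in wild-type and 18.4% and 19.5% in mutant adults, against 9.09% to 19.3% elsewhere.

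The passenger strand of the mir-37 hairpin was not set apart in the same way. In wild-type adults mir-37* was at 92.1 and 24.8 CPM, in the midst of the other passengers of the cluster, at 78.3 to 174 CPM in replicate 1 and 21.8 to 64.5 CPM in replicate 2. The ratio of guide to passenger, with 1 CPM added to each, was 7.84 and 25.3 for mir-37, 14.3 and 31.3 for mir-41-3p, 28.7 and 31.0 for mir-38, and between 53.2 and 182 for the other 4. The ratio of mir-37 thus overlapped that of mir-41-3p. It was 29.7 and 37.3 in wild-type L4 larvae and 76.2 and 87.7 in early embryos. Gravid adult libraries came from earlier work, so stage and source of the library cannot be told apart.

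The passenger strands changed little in mutant late embryos and L1 larvae, while at some other stages they were higher in the mutant. In the wild type the 7 passengers summed to 4095 and 3948 CPM in early embryos, 269 and 274 CPM in late embryos and 91.4 and 107 CPM in L1, and 7 of 7 fell at each of these 2 steps. In ebax-1(tm2321) they summed to 4765 and 5591 CPM, 244 and 218 CPM, and 89.8 and 85.3 CPM. The early embryo was the only stage at which any passenger was called, with 4 passengers higher, from mir-37* (0.45 log2 units) to mir-39* (0.64), beside mir-40* and mir-35*. All 7 passengers had estimates above 0 there, from 0.32 to 0.64, where the guides had 0.10 to 0.55. In the 12 other comparisons of ebax-1 mutants with controls none of those tested was called, and in glp-4 adults none passed the filter on low values. Estimates were nevertheless above 0 for all 6 passengers tested in L2 (0.14 to 1.00), all 6 in L3 (0.31 to 1.03) and all 7 in gravid adults (0.76 to 1.41). In L4 the estimates ran from -1.19 to 0.31, with a median of -0.48. The sums were 117 and 102 against 77.5 and 70.4 CPM in L2 and 53.6 and 69.3 against 40.8 and 46.9 CPM in L3. In gravid adults they were 1689 and 398 against 779 and 267 CPM. In glp-4 adults the passengers summed to 26.5 and 56.0 CPM in the mutant and to 10.2 and 9.75 CPM in the controls, without overlap and with no test.

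Guides outnumbered passengers far more in mutant larvae. The summed guides were 106 and 81.9 times the summed passengers in wild-type L1 and 1461 and 1670 times in ebax-1(tm2321). In L3 the ratios were 29.5 and 25.6 against 499 and 427. In early embryos they were 87.4 and 84.8 against 82.2 and 72.9, close in both genotypes.

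Another member of the seed family, mir-42, is made outside this cluster. It read 19133 and 15967 CPM in wild-type early embryos, 14376 and 14383 in late embryos, 1903 and 1456 in L1, 7753 and 7189 in L2 and 1730 and 2060 in L3. In L2 it thus exceeded the sum of the 7 guides, and its rise from L1 to L2 was 2.13 ± 0.14 log2 units while 4 of the 7 fell. In ebax-1(tm2321) it was called higher in late embryos (0.45 ± 0.03), L1 (2.88 ± 0.16), L3 (2.37 ± 0.13) and L4 (1.76 ± 0.17), but in L2 it had 0.55 ± 0.20 (adjusted p = 0.10), at 9639 and 11426 CPM against 7753 and 7189 CPM. In glp-4 adults it was 5532 and 7022 CPM in the mutant against 248 and 739 CPM (3.71 ± 0.56, adjusted p = 0.017), and in gravid adults 8990 and 6518 CPM against 2249 and 1687 CPM (2.09 ± 0.28, adjusted p = 0.017), both without overlap and short of the threshold. In ju699 L1 larvae it rose by 2.49 ± 0.13. Its change was not tested against that of the members.

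**Figure D4:**
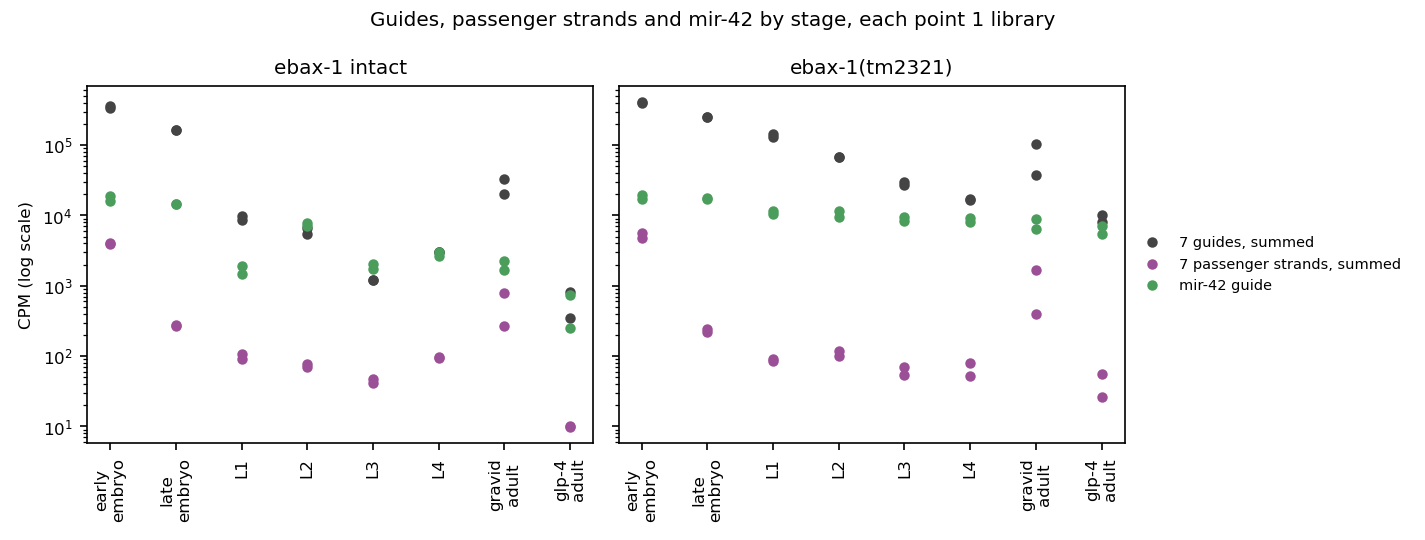
Summed level of the 7 guides, of their 7 passenger strands and of mir-42 in CPM (log axis) at 8 stages, each point 1 library, with ebax-1 intact at left and ebax-1(tm2321) at right. Passengers fall from 4095 and 3948 CPM in wild-type early embryos to 91.4 and 107 CPM in L1, and are at 4765 and 5591 CPM and 89.8 and 85.3 CPM in the mutant.

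In L4 larvae of the mir-43 experiment the ebax-1 effect was found again with each form of mir-43. With wild-type mir-43 the 7 guides summed to 2833, 2288 and 3685 CPM with ebax-1 intact and to 19512 and 18398 CPM in ebax-1(tm2321). For mir-38 these libraries read 717, 355 and 461 CPM against 3447 and 3213 CPM. All 7 rose (4.35% of strands), from mir-41-3p (2.16 ± 0.38) to mir-39 (3.21 ± 0.27). Without both libraries that stood apart the range was 2.37 to 3.2 and all 7 passed.

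The altered mir-43 strains showed the same direction. With M1 the sum was 2641, 2917 and 2924 CPM against 14998, 13656 and 13249 CPM, and 7 of 7 rose (6.09% of strands) by 2.22 to 2.83 log2 units. With M2 it was 2458, 3309 and 2876 CPM against 15026, 12733 and 12146 CPM, and 7 of 7 rose (5.22% of strands) by 2.09 to 2.66. With M3 it was 2771, 2657 and 3267 CPM against 15313, 30513 and 12531 CPM, and 7 of 7 rose (5.65% of strands) by 2.57 to 3.28, or by 2.04 to 2.79 without the libraries that stood apart, which left the ranges of M1 and M2 as they were. In all 4 backgrounds the mutant libraries lay above the others for every member, and mir-38 led in M1, M2 and M3. Of all strands compared, 14% were above without overlap with wild-type mir-43, 18.3% with M1, 15.9% with M2 and 13% with M3.

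The mir-43 alleles themselves changed none of the 7 guides by a called amount. With ebax-1 intact, M1, M2 and M3 differed from wild-type mir-43 by -0.73 to 0.29 log2 units, with 0, 1 and 0 members at an unadjusted p under 0.05 and none called by edgeR or DESeq2. Without both libraries that stood apart the range was -0.52 to 0.13, with 0, 1 and 0 at an unadjusted p under 0.05 and none called. The ebax-1 effect did not differ by a called amount between wild-type mir-43 and M1, M2 or M3 for any member, with 0, 1 and 0 at an unadjusted p under 0.05 and none called by DESeq2, and the intervals together ran from -1.58 to 1.59. Without both libraries they ran from -1.18 to 0.68, with 2, 3 and 1 members at an unadjusted p under 0.05 and none called. By contrast mir-42 fell to 5.15 to 90.7 CPM in M2 and 1.36 to 29.4 CPM in M3 larvae with ebax-1 intact, from 1202, 2336 and 3393 CPM with wild-type mir-43; the M2 strain carries mir-42 with a base change that the table counts as a strand of its own.

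Averaged over the 4 backgrounds, the share of mir-39 rose by 0.27 ± 0.08 log2 units in ebax-1(tm2321) (0.435% of strands higher) and that of mir-36 fell by 0.21 ± 0.07 on the log2 scale (95.2% of strands lower). With the replicate block the mir-36 call was lost (-0.21, adjusted p = 0.020) and that of mir-39 was kept (0.27, adjusted p = 0.0053). For mir-38 it was 0.28 ± 0.11 (adjusted p = 0.018) with all libraries and 0.36 ± 0.07 (adjusted p = 0.00013) without the 2 that stood apart. No share was called lower on leaving out any 1 of 18 of the 23 libraries. In M1, M2 and M3 larvae with ebax-1 intact mir-38 held 12.7% to 17.3% and in their ebax-1(tm2321) counterparts 18.1% to 20.9%. The germline-enriched mir-70 was 1433 to 2359 CPM in all 7 libraries of replicate 3 and 4082 to 22265 CPM in replicates 1 and 2. Its part in these results was not tested.

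**Figure D5:**
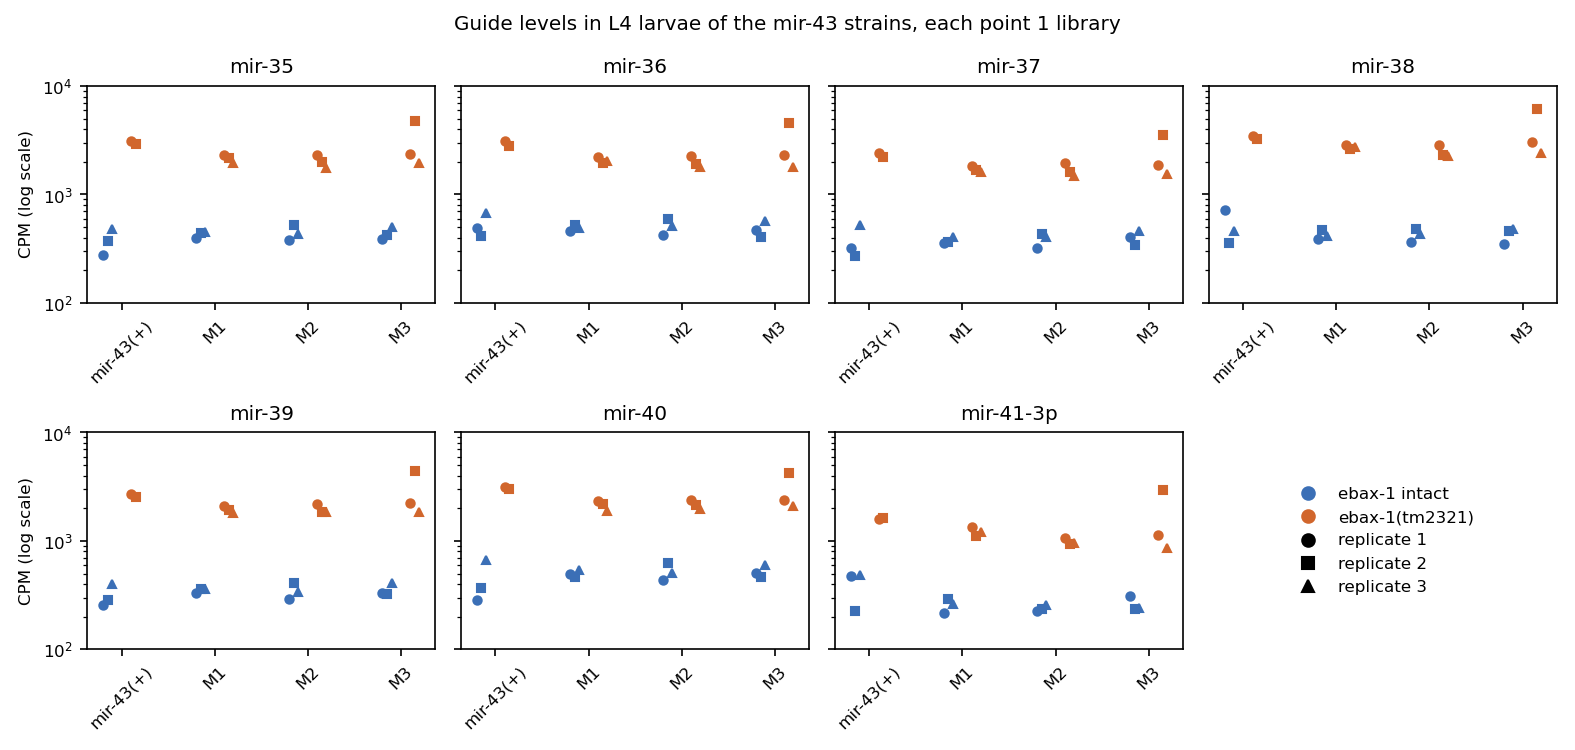
Level of each guide in CPM (log axis) in L4 larvae with wild-type or altered mir-43, with blue for ebax-1 intact, orange for ebax-1(tm2321) and a symbol for each replicate number. Mutant libraries lie above the others for all 7 guides, as they do for 13% (M3) to 18.3% (M1) of all strands compared. The library ebax-1(tm2321); mir-43(M3) replicate 2 (30513 CPM of the 7 guides) lies above its group.

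Over the 59 libraries the members were closely alike. Pearson's r of log2(CPM + 1) between members ran from 0.964 (mir-37 and mir-39) to 0.997 (mir-35 and mir-40), and the 6 pairs with mir-37 were the 6 lowest. With the summed level of the members, the strands outside the set with the highest r were mir-4805 (0.79), mir-1823 (0.77), mir-38* (0.76), mir-35* (0.76) and mir-796 (0.75). For mir-42 r was 0.44 over 59 libraries and 0.86 over the 36 outside the mir-43 experiment. The 59 include the M2 and M3 strains, where mir-42 was at most 90.7 CPM. The other strands were ranked over the 59 only, so that their r cannot be set against the 0.86. These values describe libraries that share stages, genotypes and experiments.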

How the data were processed

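The deposited table held raw counts of miRNA strands in 59 libraries. The authors made these counts by trimming reads with cutadapt and fastx_trimmer, keeping reads with every base at a quality of at least 30, and matching the first 19 bases to a curated list of miRNAs, with spike-in counts removed. The submitters' processing notes name the build WBcel235. A piRNA table was not used here. Replicates were separate biological samples.

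CPM used the total miRNA count of a library. Tests covered strands whose CPM + 1 averaged 5 or more over the controls, and used edgeR 4.0.16 (quasi-likelihood F-test, TMM scaling) in R 4.3.3, with Benjamini-Hochberg adjustment over all strands tested and a threshold of 0.01. Errors of log2 changes are SE, and intervals are 1.96 SE on either side, which is narrow for fits of few libraries. Libraries of 1 stage and allele entered each fit, those of both stages for steps and differences between effects, and all 23 for the mir-43 experiment. Shares were fitted with the summed counts of the 7 guides as library size. Because these guides took up to 40.8% of counts, CPM of other strands is relative to them. Guide-to-passenger ratios for single hairpins had 1 CPM added to each strand.

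DESeq2 1.42.0, limma 3.58.1, other scalings, no filter, a threshold of 0.05, a replicate block and leaving out each library were alternatives. Counts of guides called under these alternatives are given without the share of all strands called, so they cannot be set against it. In the mir-43 experiment same-numbered libraries deviated together with M1 (correlations 0.038 to 0.422), M2 (0.147 to 0.175) and M3 (0.201 to 0.423). With wild-type mir-43 the correlations were -0.068 and -0.061. The replicate block left 7 of 7 guides called in all 4 backgrounds. Tested on simulated data, edgeR found 8 to 10 of 10 strands changed 4-fold and called at most 1 unchanged strand. That recovery does not cover smaller changes, such as those of early embryos and of shares. Smaller changes were also simulated, and their recovery is not given here. The 7 guides were left unchanged in the simulation, so the shift in composition seen in the mutants was not covered. The named strands were the 7 guides, their passengers, mir-42, stage markers and the 5 strands most like the guides. Members and lists were chosen with earlier results of these data known. Counting precision is limited by depth, between 302789 and 20538418 counts per library. No sequences were printed.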

Additional observations from a re-analysis of the deposited data

Results flagged for a closer look

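The ebax-1 effect of 19 guide and stage pairs differed from that at the stage before, by a test of the difference itself (edgeR quasi-likelihood interaction, adjusted p below 0.01 over all strands tested). Values are differences of log2 changes, and each rests on 8 libraries.

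Between early and late embryos the effect grew by 0.78 for mir-35, 0.45 for mir-36, 0.81 for mir-37, 1.02 for mir-38 and 0.44 for mir-39. Between late embryo and L1 it grew by 3.39 for mir-35, 3.65 for mir-36, 3.40 for mir-37, 3.11 for mir-38, 3.38 for mir-39, 3.32 for mir-40 and 2.90 for mir-41-3p. Between L2 and L3 it grew by 1.32 for mir-39.

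Between L3 and L4 the effect shrank, with differences of -2.03 for mir-35, -2.2 for mir-36, -2.17 for mir-37, -2.02 for mir-38, -2.18 for mir-39 and -1.80 for mir-40.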

How the results depend on the processing

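Of 1895 values of single guides under alternatives, 1656 kept their direction and side of the threshold, 160 lost the call, 78 gained it and 1 turned: mir-40 in early embryos had -0.063 without mutant replicate 2 and 0.29 without mutant replicate 1. The tally left out differences between effects, shares and allele effects that were not called in the main fit. The threshold of 0.05 was set on the main fit itself, so there a call could only be kept or gained (162 values unchanged, 11 gained). Of 1001 values of the ebax-1 effect, 1000 were above 0. The median change of all strands in these comparisons was -0.05 to 0.04 with TMM and -0.31 to -0.03 with library-size scaling. The cause of the changes below was not tested.

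Counts of guides called higher for the ebax-1 effect changed as follows. In early embryos 3 became 5 with TMM without the family, 1 with the replicate block and 5 with the numbers crossed (chosen after seeing the data). In L4 7 became 0 with the block. In gravid adults 0 became 2 by DESeq2 and 1 at a threshold of 0.05. In glp-4 adults 4 became 7 with library-size scaling, DESeq2, no filter, 0.05 or the block. In ju699 5 became 0 with library-size scaling. Outside M1, M2 and M3 the correlations of same-numbered libraries ran from -0.439 (L3) to 0.461 (gravid adults). Whether the replicate numbers pair samples there was not settled by these correlations. To estimate the fraction of miRNA degraded, the paper scaled wild-type counts to the mutant of the same replicate. The main fits here did not pair libraries.

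For differences between stages, early to late embryo went from 5 to 3 with library-size scaling or DESeq2, 1 with no filter and 2 with the block. L1 to L2 went from 0 to 1 lower at 0.05. L2 to L3 went from 1 to 0 with library-size scaling or no filter, 3 with TMM without the family or the block, and 7 by DESeq2 or at 0.05. Gravid to glp-4 adult went from 0 to 1 by DESeq2 and 2 with the block.

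For shares, L1 had 0 lower by limma, and 2 higher and 2 lower at 0.05. L2 had 1 higher and 1 lower at 0.05. L3 had 1 lower at 0.05 and 0 higher with the block. The mir-43 mean had 2 higher by limma, at 0.05 or without both libraries that stood apart, 2 lower at 0.05 and 0 lower with the block. At 0.05 the wild-type steps had 1 higher and 2 lower (early to late embryo), 1 higher (late embryo to L1) and 1 higher (L4 to adult).

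Leaving out 1 library gave these ranges of called guides: 0 to 3 in early embryos, 0 to 7 in L2, 0 to 7 in L4, 0 to 6 in gravid adults, 7 in glp-4 adults and ju699, 1 to 4 for L1 to L2, 0 to 7 for L3 to L4 and 0 to 6 for L4 to adult. Differences between stages gave 0 to 3 higher and 0 to 1 lower (embryos), 0 to 1 lower (L1 to L2), and 0 to 7 higher (L2 to L3). Shares gave 0 to 1 higher in early embryos, L1 and ju699, 0 to 1 lower in L1 and ju699, 0 higher in L3, and 1 to 2 higher and 0 to 2 lower for the mir-43 mean. The wild-type steps gave 0 to 4 higher and 0 to 3 lower (embryos), 0 to 2 higher and lower (late embryo to L1), and 0 to 1 higher (L4 to adult).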
